A study of Mus musculus with 14 samples.

Results

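A set of 10 genes through which cells restrain T cells and other immune cells was followed across erythroid, stem and progenitor populations of the mouse: Cd274, Pdcd1lg2, Lgals9, Il10, Tgfb1, Arg1, Arg2, Nos2, Entpd1 and Nt5e. They were taken by name as 10 of the 49583 genes with a value, and every one of them was found in the table. The 14 samples form 7 groups of 2, all from C57BL/6 mice of wild type genotype, each sorted to a stated purity above 98%. Spleen Ter cells were sorted as Ter-119+ CD45- Lin- from the spleen of mice bearing a tumour, and the control was the CD45+ Ter-119- fraction of such spleens. Liver Ter cells passed the same Ter-119+ CD45- Lin- gate but came from the embryonic liver at E14.5. Bone marrow of wild type mice gave the other 4 groups: hematopoietic stem cells (HSC, c-Kit+ Sca-1+ Lin-), common lymphoid progenitors (CLP, which are also IL-7R+), megakaryocyte-erythroid progenitors (MEP, labelled c-Kit+ FcγR low CD34+) and common myeloid progenitors (CMP, labelled c-Kit+ FcγR low CD34-), the last pair also Lin-, IL-7R- and Sca-1-. The sources used here state neither the adult ages nor the kind of tumour.

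The products of these genes act on T cells in several ways. PD-L1 and PD-L2, made from Cd274 and Pdcd1lg2, bind the receptor PD-1 and dampen T cell signalling, and galectin-9 binds TIM-3 among other glycoproteins. IL-10 and TGF-beta 1 are secreted cytokines that limit inflammation, and arginases deplete the arginine that T cells need. CD39 and CD73, made from Entpd1 and Nt5e, act in sequence to turn extracellular ATP into adenosine, which signals through adenosine receptors on T cells. In myeloid cells several of these genes are used as markers of a suppressive state.

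The deposited table gives the authors' mean FPKM per group (fragments per kilobase, scaled by library depth). The 2 libraries behind a mean were recovered from its digits in 4 columns, those of CMP, MEP, liver Ter and spleen Ter. Library A is the deeper and B the other in each group, and neither can be tied to a numbered sample. Depth ran from 13413530.5 to 28537889 fragments, as fitted from the digits. Control, HSC and CLP values are means with no error and no known depth. Whether a group's samples are from different mice is not stated, so p-values measure only the spread between these samples, which may be technical. The spleen Ter libraries were the least alike: 22% of 12428 tested genes differed by over 2-fold from A to B, where CMP had 2.01%, MEP 1.01% and liver Ter 0.660% of such genes. The limma fit used 1 spread per gene for all 4 groups, so a gene has the same SE in every comparison. For genes that varied most in spleen Ter, this understates the SE and p-values of its comparisons. With weights per group, calls in spleen Ter against CMP fell from 1774 higher and 3501 lower to 1328 and 2664.

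Marker genes did not all follow the gates. Spleen Ter, gated as CD45- and Lin-, held T cell transcripts (11 recovered of 11 listed) summing to 654 and 730 FPKM in libraries A and B, B cell transcripts (10 of 10) summing to 1420 and 1869, NK cell transcripts (8 of 8) summing to 443 and 479, and macrophage and monocyte transcripts (15 of 16) summing to 339 and 1254. No marker of these 4 lists was at 0 in either library. In liver Ter the same sums ran from 0.928 to 17.6, with 6 and 7 of the 11 T cell markers at 0 in libraries A and B. Erythroid markers (5 of 12 recovered) gave 75.1 FPKM in library A of spleen Ter but 5.88 in its library B. Liver Ter had 1780 and 1776, CMP 20.2 and 11.2, and MEP 6.23 and 4.48. Of these 5, spleen Ter was called lower than liver Ter for 5, higher than MEP for 1 and different from CMP for 0. Deposited means of all 12 summed to 383 in spleen Ter, 8748 in liver Ter, 49.4 in CMP and 19.0 in MEP. The stem cell antigen gene Cd34 measured 0.111 and 0.0273 FPKM in MEP, labelled CD34+, and 29.3 and 30.1 in CMP, labelled CD34-, which goes against both gates. Neutrophil markers summed over the deposited means to 175718 FPKM in MEP, 24764 in spleen Ter, 15405 in CLP and 11518 in HSC. The sum was 3053 in CMP, 829 in the control and 297 in liver Ter. All 12 were over 1 FPKM in spleen Ter, MEP, CMP, HSC and CLP. B cell markers summed likewise to 808 in CLP and 553 in HSC. Macrophage and monocyte markers gave 454 and 430 there, and T cell markers 41.8 and 26.1. The groups are therefore named below as their labels name them, and the part of other cell types in any level was not tested. In bulk samples, fewer cells of a type and less RNA per cell cannot be told apart.

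**Figure D1:**
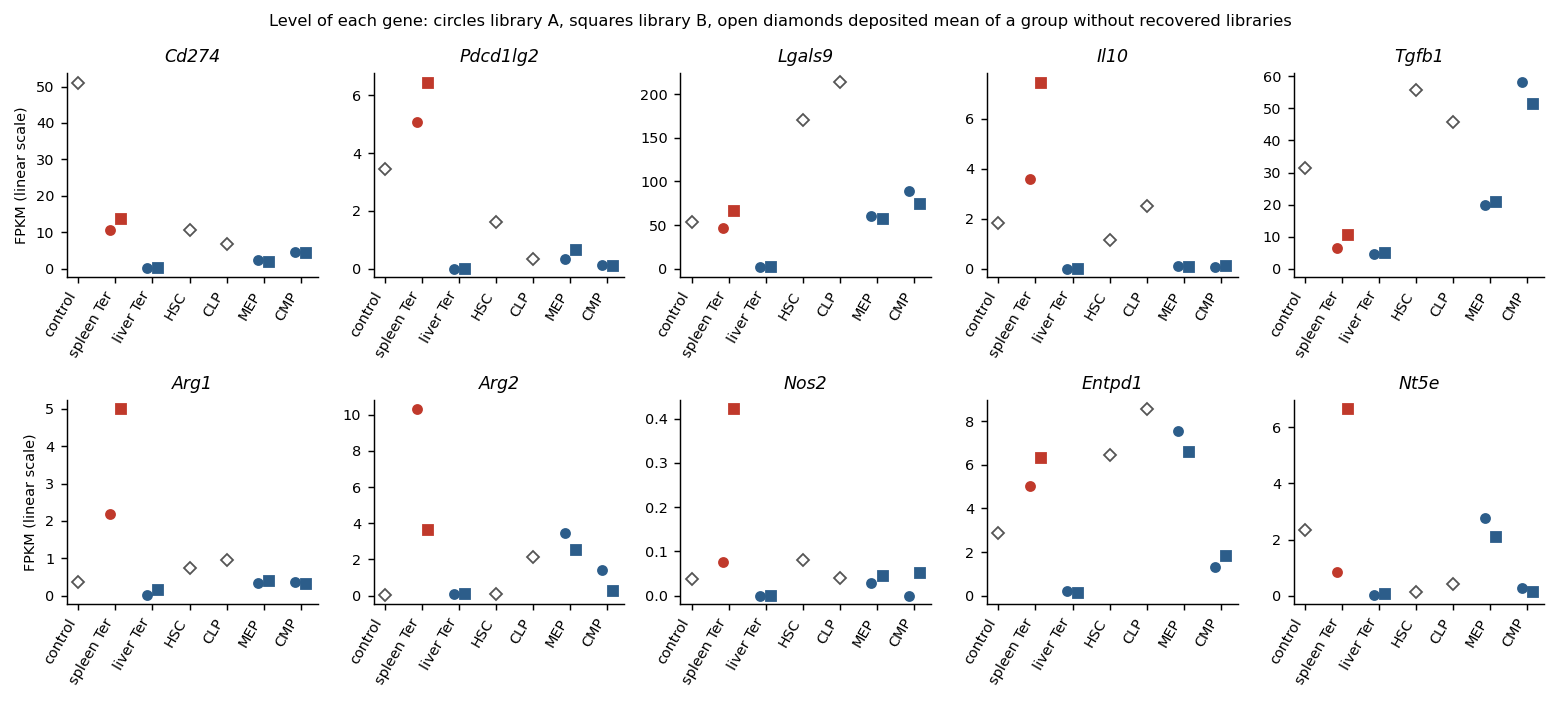
FPKM of each of the 10 genes (vertical axes, linear, each with its own range) in the 7 groups (horizontal axis). Circles and squares are libraries A and B of the groups whose libraries were recovered, spleen Ter in red, and open diamonds are the authors' means of the control, HSC and CLP. For Cd274, Pdcd1lg2, Il10, Arg1, Nos2 and, narrowly, Arg2 both spleen Ter points lie above those of liver Ter, MEP and CMP. Tgfb1 is highest in HSC and CMP.

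Among the inhibitory ligands, spleen Ter carried more Cd274 and Pdcd1lg2 than liver Ter, MEP or CMP, while its Lgals9 was called higher against liver Ter alone of these 3 groups. Cd274 (ENSMUSG00000016496, mm10 chromosome 19, 29367455 to 29388095, + strand) measured 10.8 and 13.6 FPKM in libraries A and B of spleen Ter. CMP followed at 4.51 and 4.20, then MEP at 2.35 and 1.97, and liver Ter at 0.0871 and 0.110. The spleen Ter libraries were thus above all 6 others, and the pairs of the 4 groups did not overlap. On the log2(FPKM + 1) scale, which understates the change of low genes, Cd274 was higher in spleen Ter than in liver Ter by 3.58 ± 0.19 (SE; limma adjusted p = 1.4e-05), than in MEP by 2.06 ± 0.19 (adjusted p = 0.000191) and than in CMP by 1.29 ± 0.19 (adjusted p = 0.00125). The ratio of the mean FPKM was 124 against liver Ter, 5.64 against MEP and 2.80 against CMP. Cd274 was nevertheless highest in the CD45+ control, at a mean of 51.1, followed by spleen Ter at 12.2, HSC at 10.5, CLP at 6.85, CMP at 4.35, MEP at 2.16 and liver Ter at 0.0986. The HSC mean lay just below the lower of the spleen Ter libraries.

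Pdcd1lg2 (ENSMUSG00000016498, chromosome 19, 29410919 to 29471161, + strand) follows Cd274 on the chromosome at a distance of 22.8 kb. It measured 5.07 and 6.44 FPKM in spleen Ter and was at 0 fragments in both liver Ter libraries. MEP held 0.321 and 0.636, and CMP 0.125 and 0.0906. All 6 libraries of these groups lay far below the spleen Ter pair. With 3 fragments per library as the floor, the spleen Ter mean was at least 68.5-fold higher than liver Ter. The log2 fold changes were 2.75 ± 0.17 against liver Ter (limma adjusted p = 2.75e-05), 2.19 ± 0.17 against MEP (adjusted p = 0.000117) and 2.60 ± 0.17 against CMP (adjusted p = 6.59e-05). Pdcd1lg2 passed the filter for testing, 1 FPKM in 2 libraries, only through spleen Ter. It thus had to be higher there, and these p-values are descriptions. Means in the other columns were 3.45 (control), 1.62 (HSC) and 0.349 (CLP), so that the spleen Ter mean of 5.75 was the highest of the 7 columns. Both ligand genes overlap an antisense gene, and whether the authors' counting used strand is not stated in those sources. The antisense gene A930007I19Rik, which overlaps Pdcd1lg2, had a spleen Ter mean of 1.83 and a liver Ter mean of 0.049.

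Lgals9 (ENSMUSG00000001123, chromosome 11, 78962974 to 78984946, - strand) was the most abundant of the 10 genes in every column except liver Ter, where Tgfb1 exceeded it. CMP led the libraries at 88.8 and 73.6 FPKM, MEP had 60.6 and 57.2, spleen Ter 47.0 and 66.5, and liver Ter 1.62 and 2.32. The spleen Ter pair enclosed the MEP pair and lay under the CMP pair. Against liver Ter the log2 fold change was 4.27 ± 0.22 (limma adjusted p = 1.3e-05), with a 28.8-fold ratio of means. Against MEP it was -0.07 ± 0.22 (adjusted p = 0.795) and against CMP -0.52 ± 0.22 (adjusted p = 0.0766), neither past the threshold. Without spleen Ter library A the first of these turned to 0.17, and median-of-ratios scaling turned the second to 0.08. The order of the means was CLP at 213, HSC at 170, CMP at 81.2, MEP at 58.9, spleen Ter at 56.8, the control at 53.5 and liver Ter at 1.97.

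Promoter sequences from RefSeq (GRCm38.p6) were matched for 5 of the 8 members called against liver Ter, namely Cd274, Pdcd1lg2, Lgals9, Entpd1 and Nt5e. The 250 bases before each start were searched on both strands for GAS (TTCNNNGAA), ISRE (GAAANNGAAA), the GATA factor site (AGATAA), C/EBP (TTGCNNAA), the hypoxia response core (ACGTG) and the TATA box letters (TATAAA). GAS and ISRE are the sites through which interferon signalling acts on many of its targets, and GATA sites are bound by erythroid and lymphoid GATA factors. The 3 ligand promoters are shown because they held a match, 5′ to 3′ on the gene's strand with matches in capitals. They lie at chr19:29367188-29367437 (+), chr19:29410669-29410918 (+) and chr11:78984925-78985174 (-).
Cd274: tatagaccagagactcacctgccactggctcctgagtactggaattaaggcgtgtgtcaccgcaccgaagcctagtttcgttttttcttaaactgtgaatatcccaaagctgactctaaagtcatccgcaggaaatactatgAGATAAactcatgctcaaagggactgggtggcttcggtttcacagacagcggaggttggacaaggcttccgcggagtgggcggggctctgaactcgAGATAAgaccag
Pdcd1lg2: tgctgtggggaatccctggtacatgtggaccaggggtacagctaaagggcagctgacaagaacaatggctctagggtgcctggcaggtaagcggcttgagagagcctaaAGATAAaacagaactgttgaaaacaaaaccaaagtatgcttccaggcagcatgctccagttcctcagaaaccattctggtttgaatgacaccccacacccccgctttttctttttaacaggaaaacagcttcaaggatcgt
Lgals9: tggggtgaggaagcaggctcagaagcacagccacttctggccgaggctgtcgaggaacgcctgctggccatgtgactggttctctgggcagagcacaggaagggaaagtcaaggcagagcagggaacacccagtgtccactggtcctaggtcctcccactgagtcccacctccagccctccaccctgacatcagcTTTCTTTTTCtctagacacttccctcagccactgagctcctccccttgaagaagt
Cd274 had a GATA match 108 to 103 and another 12 to 7 bases before its start, and Pdcd1lg2 had 1 at 141 to 136. Lgals9 had an ISRE match on the opposite strand, 55 to 46 bases before its start. Of 32851 promoters of the same length, 9.99% held GATA, 2.98% ISRE, 7.02% GAS, 9.56% C/EBP, 16.6% the hypoxia core and 12.4% TATA. The windows of Entpd1 and Nt5e held none of these letters. That of Nt5e, chr9:88327359-88327608 (+), lies inside the gene as annotated in GENCODE, which starts at 88327197. The bases before that annotated start were therefore not searched. A match is a description of the sequence only.

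Against MEP and CMP, spleen Ter had more Il10 and less Tgfb1, the 2 cytokine genes. Il10 (ENSMUSG00000016529, chromosome 1, 131019845 to 131024974, + strand) measured 3.59 and 7.45 FPKM in spleen Ter libraries A and B, from 71 and 142 fragments. It was at 0 fragments in both liver Ter libraries, and the MEP and CMP libraries held 1 to 3 fragments each, or at most 0.114 FPKM. The spleen Ter libraries thus stood far above the other 6, with a mean at least 52.4-fold over liver Ter with a floor of 3 fragments per library. The log2 fold changes were 2.64 ± 0.27 against liver Ter (limma adjusted p = 0.0002), 2.52 ± 0.27 against MEP (adjusted p = 0.00036) and 2.52 ± 0.27 against CMP (adjusted p = 0.000373). Like Pdcd1lg2, Il10 passed the filter for testing only through spleen Ter, so it had to be higher there and these p-values are descriptions. Il10 was also present in the columns without libraries, at means of 2.51 in CLP, 1.85 in the control and 1.14 in HSC, against 5.52 in spleen Ter. The IL-10 receptor chain gene Il10ra rose from 0.15 and 0.326 FPKM in liver Ter to 13.4 and 36.2 in spleen Ter (4.23 ± 0.41, limma adjusted p = 0.000159). Il10rb, the other chain, was higher than in liver Ter by 1.28 ± 0.21 (limma adjusted p = 0.00154), at 9.56 and 13.7 against 4.22 and 4.04 FPKM.

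Tgfb1 (ENSMUSG00000002603, chromosome 7, 25687002 to 25705077, + strand) was the 1 member called lower in spleen Ter than in MEP and CMP. CMP held 58.3 and 51.4 FPKM, MEP 20.0 and 20.9, spleen Ter 6.45 and 10.6, and liver Ter 4.67 and 4.83. The 4 pairs did not overlap and stood in the order CMP, MEP, spleen Ter and liver Ter. The log2 fold change was -1.21 ± 0.22 against MEP (limma adjusted p = 0.00368) and -2.59 ± 0.22 against CMP (adjusted p = 0.000164). Leaving out spleen Ter library A brought the value against MEP to -0.89, short of the 2-fold that a call needs. Against liver Ter the value was 0.69 ± 0.22 (adjusted p = 0.0295), also short of 2-fold. That direction depends on the scaling: it was -0.42 with median-of-ratios scaling (adjusted p = 0.0144) and -0.18 after quantile normalization, and 1.01 without spleen Ter library A. Means elsewhere were 55.7 in HSC, 45.6 in CLP and 31.5 in the control, all above the 8.51 of spleen Ter. The TGF-beta receptor gene Tgfbr2 was higher in spleen Ter (6.95 and 19.2 FPKM) than in liver Ter (0.0942 and 0.0905), by 3.54 ± 0.43 (limma adjusted p = 0.000403). Tgfbr1 measured 2.35 and 6.31, with 0.520 and 0.436 in liver Ter (1.74 ± 0.35, limma adjusted p = 0.00402). Nrros, which holds latent TGF-beta 1 on myeloid cells, was at 32.4 and 45.0 FPKM in spleen Ter, whereas Lrrc32, which does so on regulatory T cells, stayed at or under 0.0608 FPKM in all 8 libraries and had a mean of 2.08 in the control.

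**Figure D2:**
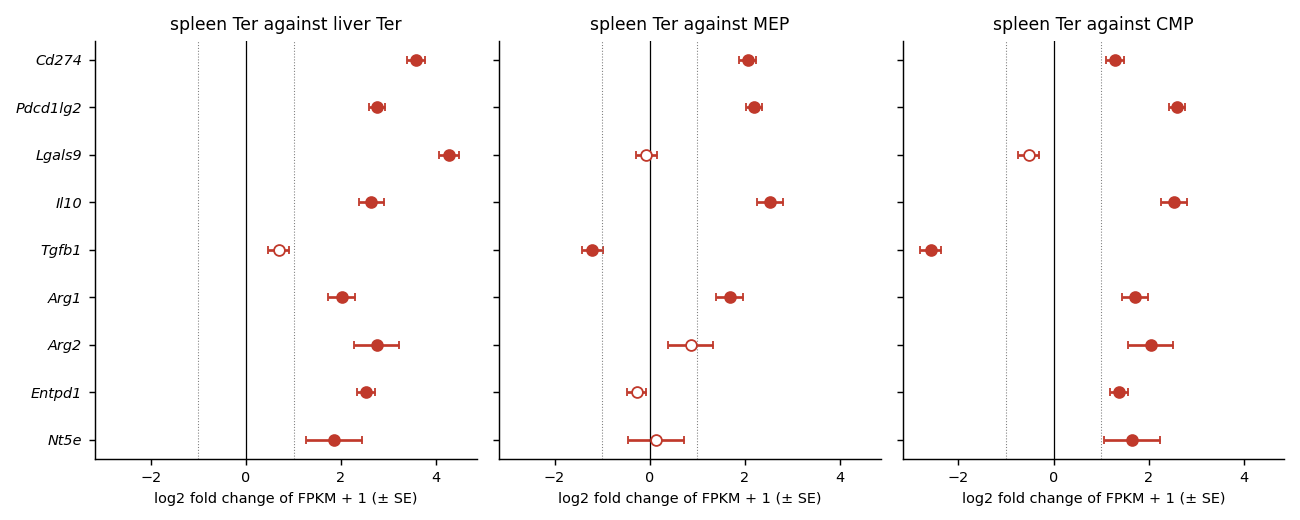
Log2 fold change of FPKM + 1 (horizontal axes, shared range) of the 9 tested genes in spleen Ter against liver Ter, MEP and CMP, with the SE of the fit as bars. Filled points are called (adjusted p under 0.05 and at least 2-fold, dotted lines), and Tgfb1 lies left of 0 against MEP and CMP. Pdcd1lg2, Il10 and Arg1 passed the filter for testing only through spleen Ter, so their points had to lie right of 0.

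Of the arginine genes, both arginases were higher in spleen Ter than in liver Ter, and Nos2 stayed near 0 in every column. Arg1 (ENSMUSG00000019987, chromosome 10, 24915221 to 24927484, - strand), the cytosolic arginase, measured 2.20 and 4.98 FPKM in spleen Ter. MEP gave 0.330 and 0.405, CMP 0.370 and 0.303, and liver Ter 0.0237 and 0.155. The spleen Ter pair stood apart, and the MEP and CMP pairs overlapped. Its log2 fold change was 2.01 ± 0.28 against liver Ter (limma adjusted p = 0.00081), 1.68 ± 0.28 against MEP (adjusted p = 0.00242) and 1.71 ± 0.28 against CMP (adjusted p = 0.00224). Arg1 too passed the filter for testing only through spleen Ter, so it had to be higher there and these p-values are descriptions. The spleen Ter mean of 3.59 was the highest of the 7 columns, ahead of CLP at 0.956, HSC at 0.749 and the control at 0.360.

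Arg2 (ENSMUSG00000021125, chromosome 12, 79130777 to 79156301, + strand), the mitochondrial arginase, was the 1 member with more in library A than in library B of spleen Ter, 10.3 against 3.61 FPKM. MEP held 3.47 and 2.51, CMP 1.44 and 0.261, and liver Ter 0.0736 and 0.0799. Library B of spleen Ter lay just above library A of MEP. The log2 fold change was 2.74 ± 0.47 against liver Ter (limma adjusted p = 0.00211) and 2.04 ± 0.47 against CMP (adjusted p = 0.00977). The call against CMP was lost without CMP library B (1.57, adjusted p = 0.0678) and with weights per group (adjusted p = 0.0959). Against MEP it was 0.86 ± 0.47 (adjusted p = 0.161), or 1.51 and called without spleen Ter library B (adjusted p = 0.0252). The control mean was 0.0332 and that of HSC 0.110, against 6.95 in spleen Ter and 2.11 in CLP. Its end overlaps the protein-coding gene Vti1b on the other strand by 285 bases, and Vti1b had a mean FPKM of 40.3 in the spleen Ter column, and the control column gave 33.6.

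Nos2 (ENSMUSG00000020826, chromosome 11, 78920787 to 78960254, + strand), the inducible nitric oxide synthase, lies 2.72 kb from Lgals9. It measured 0.075 and 0.421 FPKM in spleen Ter, from 5 and 27 fragments. No library of liver Ter held a fragment, MEP held 3 and 4, and CMP 0 and 3. It did not reach 1 FPKM in any library and was not tested. The deposited mean of HSC was 0.080, that of CLP 0.0408 and that of the control 0.0371. With a floor of 3 fragments per library the spleen Ter mean was at least 7.92-fold over liver Ter. The arginine transporter gene Slc7a1 measured 2.65 and 3.76 FPKM in spleen Ter and 10.7 and 8.31 in CMP, a log2 fold change of -1.33 ± 0.21 (limma adjusted p = 0.00197), while Slc7a2 stayed at or under 0.591 in the 8 libraries. Ass1, which rebuilds arginine from citrulline, was far below its CMP level, at 1.15 and 2.53 against 82.2 and 96.3 FPKM (-5.03 ± 0.32, limma adjusted p = 5.76e-05). Odc1, the polyamine enzyme downstream of arginase, was highest in liver Ter, with a mean of 477, then 90.2 in spleen Ter, 85.6 in CMP and 16.02 in MEP.

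The ectoenzyme genes that make adenosine were higher in spleen Ter than in liver Ter and CMP, and did not differ past the threshold from MEP. Entpd1 (ENSMUSG00000048120, chromosome 19, 40612366 to 40741602, + strand) was at 7.56 and 6.57 FPKM in the MEP libraries. Spleen Ter had 5.02 and 6.33, CMP 1.33 and 1.80, and liver Ter 0.195 and 0.123. The pairs did not overlap, with MEP highest. Its log2 fold change was 2.52 ± 0.20 against liver Ter (limma adjusted p = 6.28e-05), 1.38 ± 0.20 against CMP (adjusted p = 0.00121) and -0.28 ± 0.20 against MEP (adjusted p = 0.264). Entpd1 was also the 1 member called higher in MEP than in CMP, by 1.65 ± 0.20 (limma adjusted p = 0.000918). Its means were 8.54 in CLP, 6.44 in HSC and 2.86 in the control, against 5.68 in spleen Ter.

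Nt5e (ENSMUSG00000032420, chromosome 9, 88327197 to 88372092, + strand) differed most between the spleen Ter libraries, at 0.839 FPKM in A and 6.63 in B, a 7.91-fold ratio from 109 and 830 fragments. MEP gave 2.77 and 2.10, CMP 0.278 and 0.121, and liver Ter 0.0407 and 0.0464. The spleen Ter pair spanned the MEP pair. The log2 fold change was 1.84 ± 0.59 against liver Ter (limma adjusted p = 0.0278) and 1.65 ± 0.59 against CMP (adjusted p = 0.0485). Without library B of spleen Ter these were 0.82 and 0.62, under 2-fold, and without library A of liver Ter the first had an adjusted p of 0.101. Without CMP library A the second had an adjusted p of 0.136, and without CMP library B 0.173. Against MEP the value was 0.13 ± 0.59 (adjusted p = 0.863), which turned to 1.16 without library A and to -0.89 without library B. Means of 2.34 in the control, 0.401 in CLP and 0.139 in HSC compare with 3.74 in spleen Ter. Of the adenosine receptors, Adora2a had 1.23 and 4.69 FPKM in spleen Ter, with 0 in both liver Ter libraries (1.83 ± 0.40, limma adjusted p = 0.00581). Adora2b reached 0.718 and 1.49 against 0.0190 and 0.0927, a value of 0.97 ± 0.20 (limma adjusted p = 0.0048) that is short of 2-fold. Ada, which removes adenosine, was higher than in liver Ter (2.72 ± 0.20, limma adjusted p = 4.88e-05) and lower than in MEP (-2.26 ± 0.20, limma adjusted p = 0.000171), at 7.80 and 5.77 FPKM.

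Counted together, 9 of the 10 genes passed the filter of 1 FPKM in 2 libraries. Pdcd1lg2, Il10 and Arg1 passed it only through spleen Ter, so that they had to be higher there, and the counts over the tested members are descriptions. Against liver Ter, 8 of 9 were called higher and 0 lower, where 42.7% of all tested genes were called higher and 11.5% lower. Against MEP, 4 were higher and 1 lower, against 23.3% and 19.3% of all genes. In the comparison with CMP, 7 were higher and 1 lower, against 14.3% and 28.2%. The medians of the tested members were 2.64, 0.86 and 1.65 on the log2 scale in these 3 comparisons, and those of all tested genes 0.79, 0.10 and -0.40. The 3 comparisons share the spleen Ter libraries.

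Scaling moved both the members and all genes. With median-of-ratios scaling the median of all genes in spleen Ter against liver Ter went from 0.79 to 0.08, and after quantile normalization to -0.07. The share of calls that were higher went from 78.8% to 52.1% and 46.8%. The members called higher against liver Ter were 8 and 7 under these scalings, with medians of 2.44 and 2.30, and Nt5e was the call that quantile normalization lost (1.38, adjusted p = 0.0518). Against MEP the members' calls stayed at 4 higher and 1 lower under both scalings, while the share of higher calls among all genes went from 54.6% to 49.2% and 45.4%. Against CMP they were 7 and 6 higher with 1 lower, and the share went from 33.6% to 57.9% and 43.9%.

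Between the other groups, liver Ter was called lower than MEP for 6 members (Cd274, Tgfb1, Arg2, Lgals9, Entpd1 and Nt5e) and higher for 0, where 8.59% of genes were higher and 33% lower. It was lower than CMP for 4 (Cd274, Tgfb1, Lgals9 and Entpd1) and higher for 0, against 6.91% and 52.7%. MEP and CMP differed for 2 members, Entpd1 higher and Tgfb1 lower in MEP, where 7.34% of genes were higher and 24.2% lower. The Arg2 and Nt5e calls against MEP, with adjusted p of 0.014 and 0.0442, were each lost without any 1 of the liver Ter and MEP libraries. With median-of-ratios scaling the higher share of all calls rose from 20.7% to 49.1% for liver Ter against MEP, from 11.6% to 52.3% against CMP, and from 23.3% to 61.5% for MEP against CMP.

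The columns without libraries allow folds of the means only, with no test, counted here as past 2-fold on the FPKM + 1 scale. Low means can pass 2-fold as plain FPKM and not be counted: Entpd1 in HSC was 2.25-fold the control, Pdcd1lg2 in the control 2.13-fold HSC, and Il10 in spleen Ter 2.19-fold CLP. Spleen Ter was past 2-fold over the CD45+ control for 3 of 9 members with 1 FPKM in either (Il10, Arg1 and Arg2) and below it for 2 (Cd274 and Tgfb1), where 13.5% of genes were higher and 28.4% lower. By library, Il10 was 0.69 over the control in A and 1.57 in B, and Nt5e -0.86 in A and 1.19 in B. On this scale, over HSC 5 of 9 were higher (Pdcd1lg2, Il10, Arg1, Arg2 and Nt5e) and 2 lower (Tgfb1 and Lgals9), against 14.2% and 34.1% of genes. Over CLP, 4 of 9 were higher (Pdcd1lg2, Arg1, Arg2 and Nt5e) and 2 lower (Tgfb1 and Lgals9), against 15.5% and 35.9%. By library, Arg1 and Nt5e fell short in A over both HSC (0.87 and 0.69) and CLP (0.71 and 0.39), and Arg2 fell short over CLP in B (0.57). HSC exceeded the control for 1 of 7 members (Lgals9) and lay below it for 2 (Cd274 and Nt5e), where 16.2% of genes were higher and 10.5% lower. CLP exceeded the control for 3 of 8 (Arg2, Lgals9 and Entpd1) and lay below it for 3 (Cd274, Pdcd1lg2 and Nt5e), where 17% were higher and 11.1% lower.

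Across the 7 columns, spleen Ter had the highest mean of 6 members (Pdcd1lg2, Il10, Arg1, Arg2, Nos2 and Nt5e), CLP of 2 (Lgals9 and Entpd1), the control of Cd274 and HSC of Tgfb1. For Nt5e this rested on library B, since library A at 0.839 FPKM lay below the MEP mean of 2.43 and the control mean of 2.34. Nos2 in library A, at 0.075 FPKM from 5 fragments, lay below the HSC mean of 0.080. Liver Ter had the lowest mean of 9, the exception being Arg2, which was lowest in the control. Members with a mean of at least 1 FPKM numbered 9 in spleen Ter, 7 in the control, 6 in HSC, CLP and MEP, 4 in CMP and 2 in liver Ter. The summed FPKM of the 10 was nevertheless highest in CLP, at 281, then 247 in HSC, 147 in the control, 144 in CMP, 109 in spleen Ter, 94.9 in MEP and 7.19 in liver Ter, since Lgals9 made up 76% of the sum in CLP and 52.1% in spleen Ter. In both spleen Ter libraries, 6 members exceeded all 6 libraries of the other recovered groups. They were Cd274, Pdcd1lg2, Il10, Arg1, Arg2 and Nos2. Of these, Pdcd1lg2, Il10 and Arg1 had to do so, since they passed the filter only through spleen Ter. Nos2 was not tested, so it is outside the 18.7% of tested genes that also exceeded those libraries. The count is a description.

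Within spleen Ter, 9 of the 10 members were higher in library B than in A, as were 71.2% of tested genes, with a median log2 difference of 0.40 over all genes. The B to A ratio was 1.26 for Cd274, 1.27 for Pdcd1lg2, 1.41 for Lgals9, 2.08 for Il10, 1.64 for Tgfb1, 2.27 for Arg1, 5.61 for Nos2 and 1.26 for Entpd1. Cell type markers differed between the same libraries. Macrophage and monocyte markers (15 of 16 recovered) summed to 339 FPKM in A and 1254 in B, with 14 of 15 higher in B. Erythroid markers (5 of 12 recovered) summed to 75.1 in A and 5.88 in B, with 0 of 5 higher in B. The 12 deposited means of the erythroid list summed to 383 in spleen Ter, so most of that signal has no value by library. Neutrophil markers (4 of 12) summed to 216 and 136, with 2 of 4 higher in B, but the 12 deposited means of that list summed to 24764 in spleen Ter, so that most of its signal has no value by library. T cell and NK cell sums differed less, at 654 and 730 and at 443 and 479, with 10 of 11 and 6 of 8 markers higher in B. B cell markers (10 of 10) summed to 1420 and 1869, with 10 of 10 higher in B. Mast cell and basophil markers (6 of 7) summed to 43.6 and 12.6, with 0 of 6 higher in B, and dendritic cell markers (9 of 10) to 195 and 141, with 6 of 9 higher in B. The 10 deposited means of the dendritic list summed to 1860 in spleen Ter, so most of its signal also lacks a value by library. Arg2 was the 1 member higher in A. The part of these cell types in the members' levels was not tested.

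**Figure D3:**
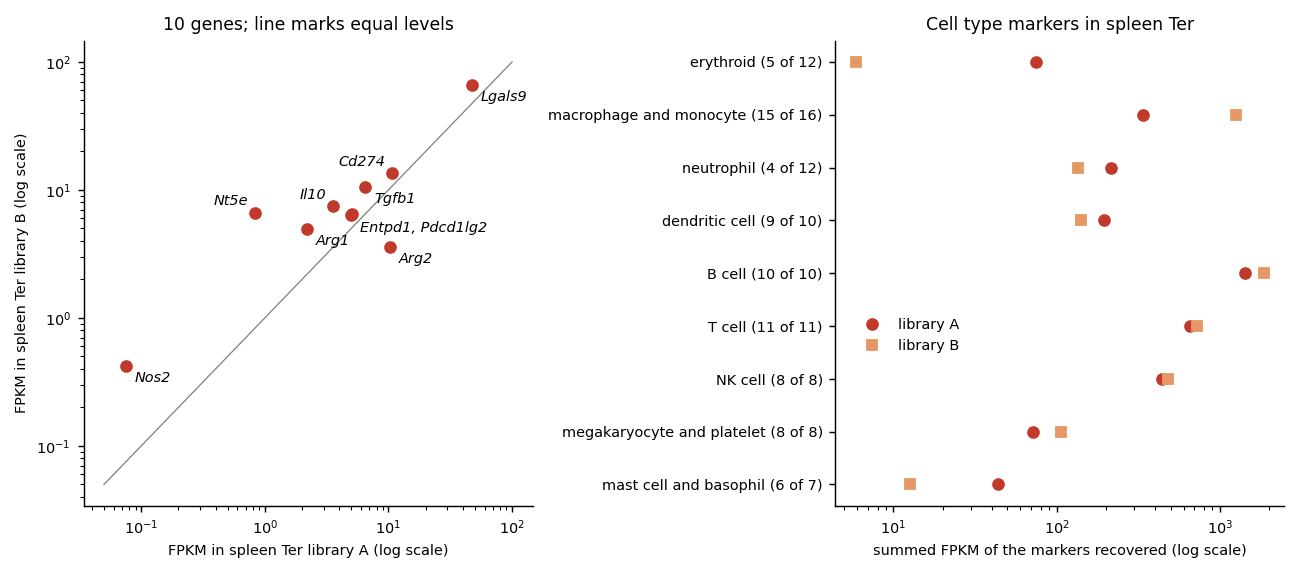
Left, FPKM of the 10 genes in libraries A and B of spleen Ter (log axes), with the line of equal levels, above which all but Arg2 lie. Right, summed FPKM of the recovered markers of 9 cell types (log axis) in library A (circles) and B (squares), with the numbers recovered and listed in brackets: the recovered erythroid markers (5 of 12) are lower and the recovered macrophage markers higher in B.

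The wider pathways were read from 8 lists of related genes, against the same shares of all genes given above. Of their tested genes, 3 of the 8 ligands, 6 of the 14 receptors, and 1 each of the cytokine, arginine, adenosine and regulator lists reached 1 FPKM only in spleen Ter among the 8 libraries, so that they had to be higher there, and the counts are descriptions. Of the other B7 family and checkpoint ligands, 8 of 17 were tested, and all 8 of those were called higher in spleen Ter than in liver Ter, 5 higher than in MEP and 6 higher than in CMP, with 0 lower. Lgals3, which encodes galectin-3, led against liver Ter at 115 and 125 against 1.77 and 1.41 FPKM (5.55 ± 0.13, limma adjusted p = 2.75e-06). Cd86, a costimulatory ligand of CD28 and CTLA-4, led against MEP (3.80 ± 0.16, limma adjusted p = 2.24e-05). Cd80, its partner, had 1.98 and 2.18 FPKM in spleen Ter, above the 0.0618 and 0.0335 of liver Ter (1.56 ± 0.16, limma adjusted p = 0.000203).

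Checkpoint receptors, most of them made by lymphocytes, were mostly higher in spleen Ter too. Of 14 tested, 12 were called higher and 0 lower than in liver Ter, 11 higher and 1 lower than in MEP, and 10 higher and 1 lower than in CMP. Btla, an inhibitory receptor of B and T cells, led both (4.87 ± 0.35, limma adjusted p = 4.93e-05, and 4.18 ± 0.35, limma adjusted p = 0.000156). Sirpa, the CD47 receptor of myeloid cells, was the gene lower than in MEP (-1.75 ± 0.54, limma adjusted p = 0.03). Pdcd1, which encodes PD-1, had 0.755 and 2.21 FPKM in spleen Ter and 0 in both liver Ter libraries, with a control mean of 3.37, and was not tested. Havcr2, which encodes TIM-3, was higher than in MEP (1.83 ± 0.47, limma adjusted p = 0.0141) and CMP (1.46 ± 0.47, limma adjusted p = 0.0329), at 1.48 and 6.57 FPKM, and not called against liver Ter (0.97 ± 0.47, adjusted p = 0.106). Beside these receptors stand the T cell sums of 654 and 730 FPKM and the B cell sums of 1420 and 1869 in spleen Ter, whose part in the receptor levels was not tested.

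Suppressive cytokines and their receptors split by comparison: of 15 tested, 13 were called higher and 0 lower than in liver Ter, 4 higher and 3 lower than in MEP, and 6 higher and 2 lower than in CMP. Against liver Ter the higher calls numbered 10 with median-of-ratios scaling and 7 after quantile normalization. Either scaling gave 4 higher and 4 lower than in MEP. Compared with CMP, 8 were higher and 0 lower with median-of-ratios scaling, and 8 and 1 after quantile normalization. Il10ra led against liver Ter, as given above. Gdf15, a secreted TGF-beta family member, was higher than in MEP (1.94 ± 0.51, limma adjusted p = 0.0162), and Inhba, an activin subunit, was lower (-3.75 ± 0.71, limma adjusted p = 0.00409). Of 6 tested genes of TGF-beta processing, 3 were higher than in liver Ter, as were 42.7% of all genes. They were led by Nrros (4.20 ± 0.20, limma adjusted p = 1.06e-05). Against MEP 0 were higher and 3 lower, led by the protease gene Plau (-4.77 ± 0.19, limma adjusted p = 1.83e-05), where 23.3% and 19.3% of all genes were. Against CMP 0 were higher and 2 lower, where 14.3% and 28.2% of all genes were.

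Arginine, nitric oxide and tryptophan genes were mostly under the filter, with 6 of 18 tested. Against liver Ter 3 were higher and 0 lower, which became 3 higher and 2 lower with median-of-ratios scaling and 1 higher and 2 lower after quantile normalization. Against MEP 2 were higher and 0 lower, and against CMP 2 higher and 2 lower. Gch1, which makes the cofactor of nitric oxide synthases, led against both liver Ter (3.01 ± 0.54, limma adjusted p = 0.00242) and MEP (3.22 ± 0.54, limma adjusted p = 0.00231), at 30.4 and 8.18 FPKM. In the adenosine list, 5 of 9 tested were higher and 1 lower than in liver Ter, 3 higher and 2 lower than in MEP, and 1 higher and 2 lower than in CMP. For both lists, the shares of all genes higher and lower were 42.7% and 11.5% against liver Ter. They were 23.3% and 19.3% against MEP, and 14.3% and 28.2% against CMP. Cd38, an NAD-degrading ectoenzyme, led upwards against liver Ter (4.67 ± 0.55, limma adjusted p = 0.000355) and MEP (3.89 ± 0.55, limma adjusted p = 0.00112). Slc29a1, a nucleoside transporter, led downwards against liver Ter (-2.19 ± 0.31, limma adjusted p = 0.000885), and Ada against MEP, as given above.

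Genes listed as transcriptional regulators of the members were higher than in liver Ter for all 16 tested of 18, for 14 of 16 with median-of-ratios scaling and for 13 of 15 after quantile normalization. Junb, an AP-1 subunit, led at 706 and 958 against 3.24 and 4.31 FPKM (7.44 ± 0.28, limma adjusted p = 5.06e-06). Against MEP 9 were higher and 0 lower, led by the interferon regulatory factor gene Irf8 (3.62 ± 0.33, limma adjusted p = 0.000192), and against CMP 7 were higher and 2 lower. With either scaling 8 regulators were higher and 1 lower than in MEP. Compared with CMP, 10 were higher and 0 lower with median-of-ratios scaling, and 9 and 1 after quantile normalization. Of 8 tested prostaglandin and oxidant genes, 6 were higher and 0 lower than in liver Ter, led by the NADPH oxidase subunit gene Cyba (6.67 ± 0.14, limma adjusted p = 2.75e-06). That count was 4 with median-of-ratios scaling and 4 after quantile normalization. Against MEP 1 was higher, the prostaglandin synthase gene Ptges3 (1.46 ± 0.26, limma adjusted p = 0.00289), and 3 were lower, led by the cyclooxygenase gene Ptgs1 (-2.28 ± 0.50, limma adjusted p = 0.00735). Against CMP 2 were higher and 0 lower.

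**Figure D4:**
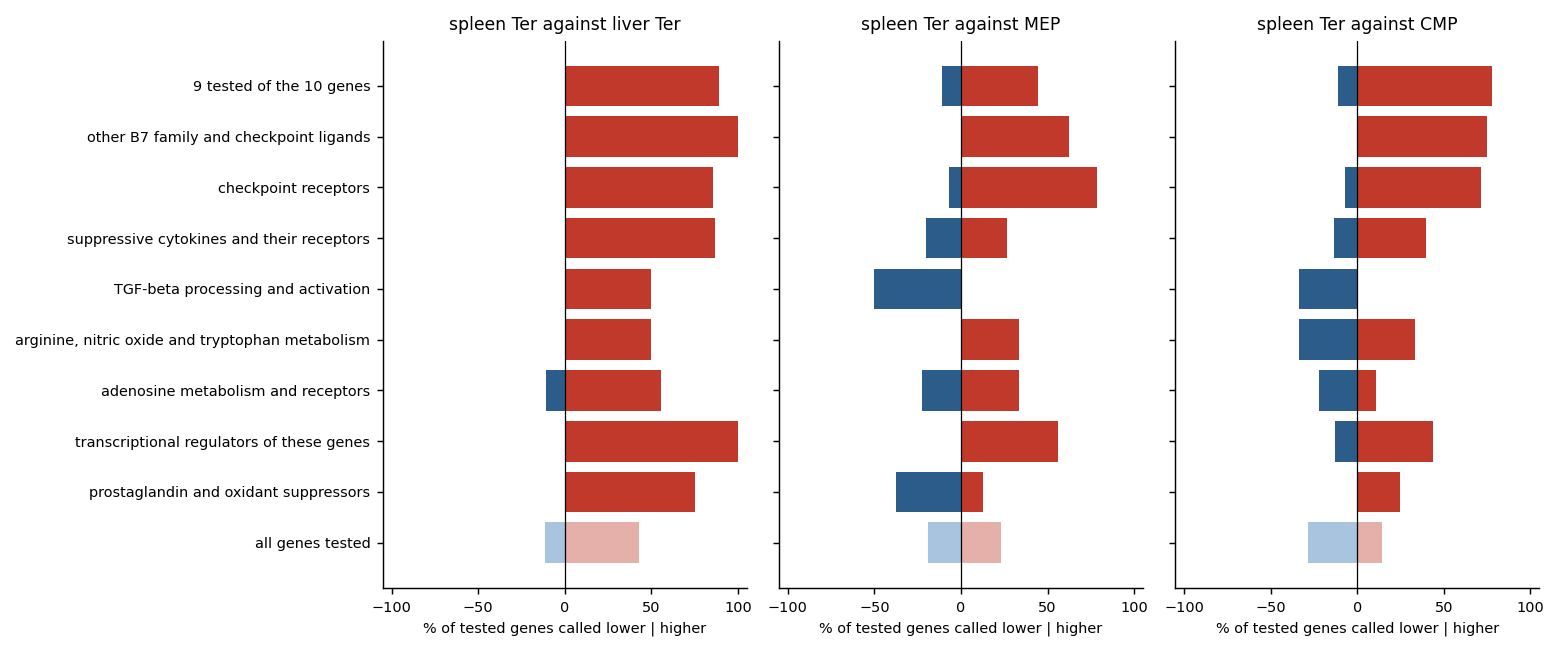
Share of the tested genes of each list (rows) called higher (right, red) or lower (left, blue) in spleen Ter against liver Ter, MEP and CMP, on a horizontal axis in percent. Pale bars at the bottom give all 12428 tested genes: against liver Ter the lists and the 9 tested members lean to the right, as 42.7% of all genes do, though the arginine list had 1 higher and 2 lower calls there after quantile normalization, and TGF-beta processing leans to the left against MEP.

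In the remaining comparisons most calls in the lists were lower in liver Ter, as were most calls over all genes. Against MEP, where 33% of all genes were lower, liver Ter was lower for 4 of the 8 checkpoint ligands, 3 of the 14 receptors, 12 of the 15 cytokine genes, 5 of the 6 TGF-beta processing genes, 1 of the 6 arginine genes, 3 of the 9 adenosine genes, 13 of the 16 regulators and 6 of the 8 prostaglandin and oxidant genes, and higher for 2 adenosine genes. The arginine list turned to 2 higher and 0 lower with median-of-ratios scaling and after quantile normalization. Against CMP, where 52.7% of all genes were lower, it was lower for 4, 5, 7, 5, 3, 5, 13 and 6 of them in the same order, and higher for 1 adenosine gene and 1 regulator. Between MEP and CMP, 7.34% of all genes were higher in MEP and 24.2% lower. Of the lists, 4 cytokine genes and 4 prostaglandin and oxidant genes were higher in MEP and 1 of each lower, and the ligands gave 2 higher and 1 lower. The adenosine list gave 2 higher and 3 lower, and TGF-beta processing 2 and 2. Receptors, arginine genes and regulators each gave 0 higher and 2 lower. With median-of-ratios scaling the regulators gave 6 higher and 1 lower, and the receptors 2 and 2.

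Genes whose pattern over the 8 libraries was most like that of each tested member are given as a description, since the 8 points come from 4 groups. Of all genes tested, Cd274 was followed most closely by Atp6v1h and Smim20 (Pearson's r = 0.997 and 0.996), Pdcd1lg2 by Setbp1 and Gm15859 (0.999 and 0.998), and Il10 by Gm42809 and the T cell antigen gene Cd5 (1.000 and 0.999). Tgfb1 was nearest to Ago1 and Kdelr1 (0.998 and 0.997), Lgals9 to Csk (0.996), and Arg1 to Prkcq and Baiap2l1 (0.996 and 0.996). Arg2 was nearest to Gad1-ps and Rhov (0.988 and 0.986), Entpd1 to Armc7 and Rdh12 (0.990 and 0.989), and Nt5e to Il18bp and Phf1 (0.993 and 0.992). Among the members, the highest values were 0.987 for Il10 with Arg1 and 0.976 for Pdcd1lg2 with Il10, and the lowest was -0.29 for Il10 with Tgfb1. Pdcd1lg2, Il10 and Arg1 reached 1 FPKM only in spleen Ter among the 8 libraries. High values among them, and with other genes of that kind, therefore follow in large part from the filter. They do not show shared regulation.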

How the data were processed

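RNA from sorted mouse cells was sequenced in 14 samples, and the authors deposited 1 table of mean FPKM per group, a unit read from the table's values and digits. The genome build was mm10, per the submitters' processing notes, while no aligner, counter or annotation is named: these are not given in sources used here. Of 49588 lines, 2 without a name and 3 repeats were left out, and 49324 of 49583 genes were matched to GENCODE M21. Unmatched sample columns numbered 0.

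For 4 of the 7 columns, the whole fragment numbers of both libraries were recovered by finding the pair that gives the printed mean at the gene's length, annotated or searched between 100 and 30000 bases. This gave 13230 of the 14049 genes that reached 1 FPKM in any of those columns (94.17%), 1931 of them at a searched length, Pdcd1lg2 and Arg1 included. Its limits were set after the data were seen, in 3 versions, and a stricter version is an added alternative, chosen after seeing the data. Tested on simulated data, the recovery returned 97.67% of 3000 genes with 1 wrong of 2930.

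The 12428 genes that reached 1 FPKM in 2 or more libraries were fitted with limma 3.58.1 (R 4.3.3, trend) on log2(FPKM + 1) over 8 libraries and 4 groups. P-values were adjusted by Benjamini-Hochberg over all tested genes, and a gene was called at an adjusted p under 0.05 and a log2 change of at least 1. The control, HSC and CLP columns gave folds of means only. Floors of 3 fragments cover counting error only. On simulated data of 11283 genes for this fit, 14% of genes changed 2-fold and 82% of those changed 4-fold were called, and 23 of 171 calls were unchanged genes. That simulation gave all 8 libraries the same spread and changed only 50 genes at each fold. In the data the spleen Ter libraries differed more than those of other groups and far more genes were called. These rates therefore need not hold for the spleen Ter comparisons. Python 3.11.15, numpy 2.4.6 and pandas 2.3.3 were used for the other steps.

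The members and lists were chosen with earlier results of these data known. The text names all 10 members, the called list genes with the largest change in each direction against liver Ter and MEP, 16 receptors and partners of members, and the 2 genes most like each tested member, of which 1 is not reported here. Alternatives were a filter of 5 FPKM or none, a pseudocount of 0.1, median-of-ratios, quantile and globin-free scaling, weights per group, and each library left out.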

Additional observations from a re-analysis of the deposited data

How the results depend on the processing

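Of 624 recomputed member values, 569 kept their direction and side of the threshold, 28 lost the call, 12 gained it and 15 changed sign. With a filter of 5 FPKM, which leaves 5 members tested, 4 were called in spleen Ter against liver Ter, 3 against MEP and 4 against CMP. MEP against CMP gave 4 calls with a pseudocount of 0.1 and 4 with weights per group, and HSC against the control gave 5 members past 2-fold with a pseudocount of 0.1. The cause was not tested. Sign changes with median-of-ratios scaling were -0.42 for Tgfb1 in spleen Ter against liver Ter, -0.025 for Nt5e against MEP, 0.079 for Lgals9 against CMP and 0.30 for Lgals9 in MEP against CMP. Quantile normalization gave -0.18 for Tgfb1 in spleen Ter against liver Ter, -0.19 for Nt5e against MEP, and 0.11 for Arg1 and 0.071 for Nt5e in liver Ter against CMP. In spleen Ter against MEP, leaving out 1 library moved Lgals9 between -0.32 and 0.17 (above 0 without spleen Ter library A) and Nt5e between -0.89 and 1.16 (below 0 without spleen Ter library B, and -0.0078 without MEP library B). In MEP against CMP, Il10 ranged from -0.038 (without CMP library A) to 0.044, and Arg1 from -0.0066 (without MEP library B) to 0.072. With 1 library left out, where the lone library is assumed to vary like the other groups, the calls ran from 7 to 9 in spleen Ter against liver Ter, 5 to 6 against MEP and 6 to 8 against CMP, were 4 in liver Ter against MEP (6 with all libraries), 4 against CMP and 2 in MEP against CMP. The members past 2-fold ran from 4 to 6 against the control, 5 to 7 against HSC and 4 to 6 against CLP. Tgfb1 fell short of a call with median-of-ratios scaling in liver Ter against MEP (-0.92) and MEP against CMP (-0.62), as did Entpd1 in liver Ter against CMP (-0.50). The stricter recovery limits, chosen after seeing the data, gave the same counts of called members. No paired analysis was possible because the deposited columns carry no replicate numbers. Depth limits Nos2, Il10, Pdcd1lg2 and Arg1, whose levels outside spleen Ter rest on few fragments.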
